A study of Mus musculus with 10 samples.

Results

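Promoter regions with a peak in every library were examined in Omni-ATAC-seq data of mouse colon organoids. Peaks of the 10 libraries that shared at least 1 bp were merged into 85680 regions, of which 28205 held a peak in all 10. The promoter regions are those of the 28205 whose midpoint lay at most 1 kb before, or 100 bp after, the transcription start of a protein-coding gene (GRCm38, GENCODE M21). There were 7860 of them, 27.9% of the regions called in all libraries and 72.6% of the 10827 promoter regions called in at least 1 library. They were thus chosen by the peak calls themselves, so that their presence in all libraries is no finding. What follows is how high and how wide their peaks were in each group.

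Omni-ATAC-seq marks open chromatin with a transposase that cuts and tags accessible DNA. WT and AHR KO organoids were grown in WENR medium, which supplies Wnt3a, or were taken 4 days after Wnt3a had been withdrawn (d4 ENR). By the methods of the study, WENR also held SB202190, an ALK5 inhibitor and nicotinamide, which the ENR medium lacked. Wnt3a withdrawal below therefore stands for the whole change of medium, whose parts cannot be told apart. There were 2 WT and 3 AHR KO libraries in WENR, and 3 WT and 2 AHR KO libraries in d4 ENR. By the methods of the study, AHR KO organoids came from colon crypts of Vil-Cre Ahr fl/fl mice, in which the villin promoter drives Cre in the intestinal epithelium, and live cells were sorted before transposition. The labels do not say whether replicates are separate mice or cultures, so the p-values below measure the spread between libraries, which may be technical.

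AHR, the aryl hydrocarbon receptor, is a ligand-activated transcription factor that binds DNA together with ARNT. Wnt signals keep colon epithelium in a proliferative, regenerating state, and their withdrawal lets cells differentiate. Promoters of widely used genes lie in CpG islands and stay nucleosome-free in most cells, so that differences between states are sought in how open they are. YAP and TAZ, the coactivators restrained by the Hippo pathway, act through TEAD factors in regenerating epithelium, whereas HNF4 and CDX factors act in differentiated enterocytes.

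To show what these promoters look like, the 200 bases before the start of 12 of them are printed, on the strand of the gene, from the GRCm38 sequence. Capitals mark matches to words that known factors bind, searched on both strands except for the TATA box, TATAAA, which was searched on the gene's strand. The words were GGAATG for TEAD, CAAAGTCCA for HNF4, TTTATNG for CDX, GCGCA followed by its reverse complement for NRF1, CCGGAAG for ETS, GGGCGGG for SP/KLF, CCAAT for NFY, TGACGTCA for CRE, CACGTG for the E-box and TNGCGTG for AHR:ARNT. AAGATGGC for YY1, TCTCG followed by its reverse complement for ZBTB33 and TGANTCA for AP-1 were searched too. The CDX word can overlap a TATA box on the other strand. A match is a run of letters and not a shown binding site. The first 4 genes are *Ptpn14* and *Amotl2*, which bind YAP, and *Slc30a10* and *Hnf4g*, whose regions are described below.
*Ptpn14* (chr1:189728068-189728267, plus strand): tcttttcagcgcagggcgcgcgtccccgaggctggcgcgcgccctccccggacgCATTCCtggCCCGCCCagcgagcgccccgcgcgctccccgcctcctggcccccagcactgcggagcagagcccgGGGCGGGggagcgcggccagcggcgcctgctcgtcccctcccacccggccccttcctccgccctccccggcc
*Amotl2* (chr9:102718229-102718428, plus strand): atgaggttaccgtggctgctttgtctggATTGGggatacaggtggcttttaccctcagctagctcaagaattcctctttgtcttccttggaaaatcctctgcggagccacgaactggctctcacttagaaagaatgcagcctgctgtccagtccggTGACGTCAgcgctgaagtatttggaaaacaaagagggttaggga
*Slc30a10* (chr1:185454648-185454847, plus strand): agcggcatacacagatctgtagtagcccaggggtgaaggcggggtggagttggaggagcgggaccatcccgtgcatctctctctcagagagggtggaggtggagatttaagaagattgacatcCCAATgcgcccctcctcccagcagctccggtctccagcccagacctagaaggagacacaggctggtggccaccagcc
*Hnf4g* (chr3:3633950-3634149, plus strand): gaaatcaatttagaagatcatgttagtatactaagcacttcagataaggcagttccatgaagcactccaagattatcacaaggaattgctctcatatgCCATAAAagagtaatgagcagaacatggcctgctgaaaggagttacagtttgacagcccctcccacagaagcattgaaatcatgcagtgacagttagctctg

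In *Ptpn14* the TEAD word began 146 bases before the start. *Slc30a10* held an NFY word at 77 bases and *Hnf4g* a CDX word at 102 bases before the start. A further 4 are metabolic or gut regulatory genes whose peaks were higher, relative to the median region, after Wnt3a withdrawal in AHR KO. That can also mean a smaller loss of height. *Cyp8b1*, *Cyp2c70* and *Gata4* were chosen for their HNF4 word after the values were seen.
*Rdh16* (chr10:127800952-127801151, plus strand): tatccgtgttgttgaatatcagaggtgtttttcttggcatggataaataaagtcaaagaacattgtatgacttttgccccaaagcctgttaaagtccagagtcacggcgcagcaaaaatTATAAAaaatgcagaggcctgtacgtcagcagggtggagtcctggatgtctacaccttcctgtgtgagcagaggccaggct
*Cyp8b1* (chr9:121916306-121916505, minus strand): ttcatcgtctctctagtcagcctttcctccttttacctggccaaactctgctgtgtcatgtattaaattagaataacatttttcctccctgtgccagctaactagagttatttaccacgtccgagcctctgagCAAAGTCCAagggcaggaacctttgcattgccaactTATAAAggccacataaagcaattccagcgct
*Cyp2c70* (chr19:40187334-40187533, minus strand): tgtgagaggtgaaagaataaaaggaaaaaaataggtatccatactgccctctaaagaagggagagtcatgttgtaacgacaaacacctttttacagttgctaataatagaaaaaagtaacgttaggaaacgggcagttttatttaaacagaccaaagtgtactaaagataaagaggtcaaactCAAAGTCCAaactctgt
*Gata4* (chr14:63245272-63245471, minus strand): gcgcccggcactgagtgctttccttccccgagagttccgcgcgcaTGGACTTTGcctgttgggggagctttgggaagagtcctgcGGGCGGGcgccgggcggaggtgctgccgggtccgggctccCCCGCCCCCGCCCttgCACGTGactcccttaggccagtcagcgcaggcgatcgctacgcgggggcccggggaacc

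The HNF4 word began 67 bases before the start in *Cyp8b1*, 17 bases before it in *Cyp2c70* and 155 bases before it in *Gata4*. *Cyp8b1* and *Rdh16* also held a TATA box, at 31 and 81 bases. The last 4 are promoters of widely used genes. *Ube4a*, *Ndufaf4* and *Wdr45* were chosen for their NRF1 word after the values were seen, and *Actb*, the beta-actin gene, stands for the common SP/KLF and ETS type.
*Ube4a* (chr9:44965601-44965800, minus strand): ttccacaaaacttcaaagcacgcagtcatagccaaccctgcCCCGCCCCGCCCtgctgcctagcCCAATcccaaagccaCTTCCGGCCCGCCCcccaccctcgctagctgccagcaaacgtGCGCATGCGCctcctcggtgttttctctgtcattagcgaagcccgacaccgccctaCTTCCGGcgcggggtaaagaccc
*Ndufaf4* (chr4:24897883-24898082, plus strand): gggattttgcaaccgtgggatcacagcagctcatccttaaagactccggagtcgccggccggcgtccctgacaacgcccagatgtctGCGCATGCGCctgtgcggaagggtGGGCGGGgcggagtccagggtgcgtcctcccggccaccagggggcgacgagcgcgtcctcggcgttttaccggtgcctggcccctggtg
*Wdr45* (chrX:7714133-7714332, plus strand): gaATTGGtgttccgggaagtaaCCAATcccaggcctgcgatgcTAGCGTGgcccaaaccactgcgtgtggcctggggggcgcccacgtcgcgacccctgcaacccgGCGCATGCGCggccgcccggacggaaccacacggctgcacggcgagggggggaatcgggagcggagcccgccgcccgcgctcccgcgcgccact
*Actb* (chr5:142905938-142906137, minus strand): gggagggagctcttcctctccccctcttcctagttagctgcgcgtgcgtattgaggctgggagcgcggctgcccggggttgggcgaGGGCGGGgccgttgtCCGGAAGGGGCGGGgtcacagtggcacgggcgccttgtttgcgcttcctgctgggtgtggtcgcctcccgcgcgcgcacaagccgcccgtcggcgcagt

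The promoter regions as a whole were richer in CpG than gene starts in general. From 250 bases before to 50 bases after the start, their median ratio of observed to expected CpG was 0.796, against 0.525 over all 21938 protein-coding gene starts, and the median GC content was 63.0% against 55.0%. A ratio of 0.6 or more was found in 75.1% of the regions and in 44.4% of all starts. The SP/KLF word stood in 48.4% against 31.5% of all starts, and the ETS word in 17.6% against 10.8%. The TATA box was rarer, at 3.33% against 8.68%. The regions held starts of 8337 genes, 38% of all protein-coding genes. A single gene started in 6958 of them, 2 genes in 866 and 3 genes in 36, and in 833 regions genes started on both strands. The median region was 1459 bp long, and its midpoint lay 39 bases upstream of the start.

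Just outside the choice stood 614 promoter regions called in 9 libraries, and 550 of these were missing in WT d4 ENR replicate 1 alone. Their median height, in fragments of pileup per 1000000 fragments of the library (FPM), was 0.872 against 3.36 for the promoter regions called in all 10, and their median width 801.5 bp against 1246 bp. At the downstream edge of the window, 1116 regions had a midpoint in the last 50 bp inside it, with a median height of 3.14, and 622 had one up to 50 bp beyond it, with a median of 2.91.

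The cells carried epithelial promoters. Of 7 epithelial markers, the start lay in a region called in all 10 libraries for 6, as in *Krt8* and *Vil1*, whereas the start taken for *Krt19* lay outside, and its promoter region is at another start. No start of 7 fibroblast or muscle, 6 leukocyte, 4 endothelial and 4 neuron or glia markers lay in such a region. Among the promoter regions by other starts of these genes were those of *Pdgfra* and *Col1a1*, with median heights of 1.4 and 1.5 FPM against 6.65 FPM for *Krt8*.

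The libraries differed in a way that bears on each value below. Depth ran from 30354729 to 49126792 fragments. Peaks held 63.0 to 68.6% of all fragment coverage in the 5 WENR libraries, 14.1 to 30.9% in WT d4 ENR and 33.8 to 44.2% in AHR KO d4 ENR. Fragments averaged 235 to 255 bp in WENR libraries and 156 to 221 bp in d4 ENR libraries. The part of these differences in the results was not tested. In bulk libraries, fewer cells with an open promoter and a less open promoter in each cell cannot be told apart.

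Height, the pileup of fragments averaged over the peaks of a region by their length and given in FPM, was lower at promoter regions after Wnt3a withdrawal. The median over the 7860 regions was 4.16 and 4.33 in WT WENR and 4.33, 4.61 and 4.46 in AHR KO WENR. It was 1.22, 1.51 and 1.74 in WT d4 ENR and 2.23 and 2.70 in AHR KO d4 ENR. The groups' mean medians were 4.25 ± 0.114 (SD, n = 2) and 4.46 ± 0.139 (n = 3) in WENR, and 1.49 ± 0.261 (n = 3) and 2.47 ± 0.328 (n = 2) in d4 ENR. No d4 ENR library reached any WENR library, and both AHR KO d4 ENR libraries stood above the 3 WT d4 ENR libraries. Width, the bases covered by peaks, followed with smaller differences. Median widths were 1279.5 to 1327 bp in WENR, 1003, 984.5 and 1094 bp in WT d4 ENR and 1250 and 1213.5 bp in AHR KO d4 ENR.

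Fold enrichment, which divides the pileup by the background around the peak in that library, did not follow this order. Its median was 5.53 to 5.80 in WENR, 4.24, 5.80 and 5.95 in WT d4 ENR and 5.29 and 5.88 in AHR KO d4 ENR. Only WT d4 ENR replicate 1 stood clearly apart. The promoter regions held 21.8 to 23.6% of all fragment coverage in WENR, 6.40 to 11.2% in WT d4 ENR and 12.7 and 16.2% in AHR KO d4 ENR. Of the coverage inside peaks they held 33.3 to 45.4%, with the highest shares in WT d4 ENR.

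**Figure D1:**
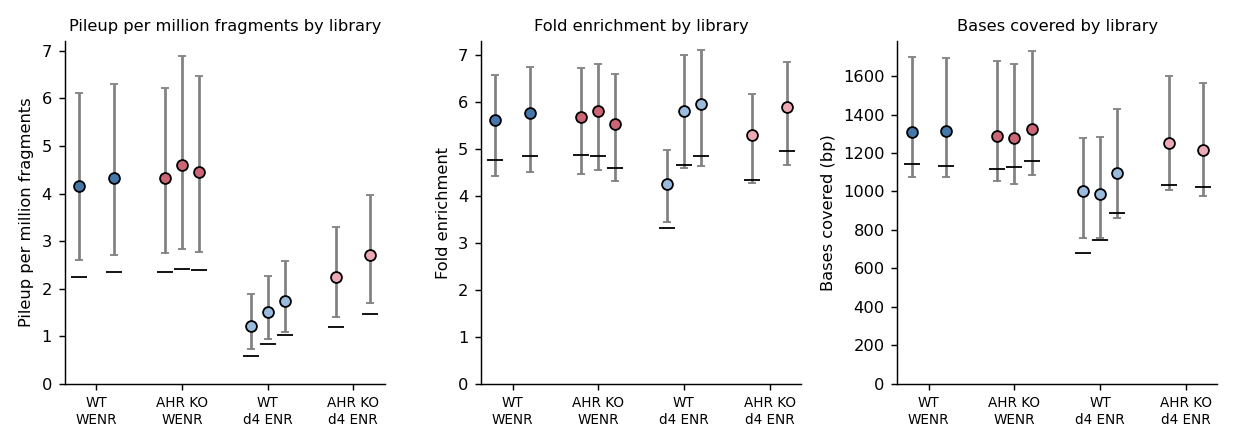
Median pileup (FPM), fold enrichment and bases covered (bp) at the 7860 promoter regions in each of the 10 libraries, with bars from the lower to the upper quartile and black ticks for the median of the other regions called in all libraries. The median pileup falls from 4.16 to 4.61 in WENR to between 1.22 and 2.70 in d4 ENR, while fold enrichment stays between 5.29 and 5.95 in every library but WT d4 ENR replicate 1.

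To compare single promoters across libraries with such unequal signal, heights were centred on the median of the regions called in all 10 libraries. A region that is higher after centring lost less, or gained more, than the median region. A region was called when limma gave an adjusted p under 0.05 over all 28205 regions. Without centring, most promoter regions were called for the genotype in d4 ENR and for withdrawal in each genotype. The genotype in WENR called 0 of them in limma, with 62 at an unadjusted p under 0.05, where 0.0106% of all regions were called, each of them lower. In d4 ENR 6740 were higher in AHR KO than in WT and 0 were lower, where 73.1% and 0.0425% of all regions were. With withdrawal in WT 3 were higher and 7744 lower, where 0.131% and 93.2% of all were, 93.4% together. In AHR KO 32 were higher and 7249 lower, where 2.18% and 75.6% of all were, 77.8% together. Without centring, the median log2 change over the promoter regions was 0.70 for the genotype in d4 ENR and 0.07 for that in WENR. It was −1.47 for withdrawal in WT and −0.84 in AHR KO.

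Wnt3a withdrawal in WT changed the centred height of 2201 promoter regions. Among all regions tested 40.3% were called, and among the promoter regions 28.0%. Of these 908 were higher and 1293 lower, 11.6% and 16.5% of the promoter regions, where 20.1% and 20.2% of all regions were. Which direction had more calls depended on the setting, with 1103 higher and 1021 lower after quantile normalisation, 761 and 742 with 50% of the region covered, and 1036 and 607 in summed coverage. The promoter regions varied less than other regions called in all libraries, with an SD of the log2 change of 0.361 against 0.596. Leaving out 1 library at a time kept 725 of the 2201 called in every case. Without WT WENR replicate 1 or 2 there were 988 or 910 calls.

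*Wwtr1*, which encodes the YAP partner TAZ, had the largest fall in WT (chr3:57574744-57576789). Its height in FPM was 7.89 and 7.95 in WT WENR, 7.38, 9.06 and 9.56 in AHR KO WENR, 0.715, 0.900 and 0.982 in WT d4 ENR, and 1.72 and 2.17 in AHR KO d4 ENR. All d4 ENR libraries lay below all WENR libraries, and both AHR KO d4 ENR libraries above the WT ones. Centred, it fell by 1.75 ± 0.12 (log2, SE) in WT, or 3.36-fold, with an adjusted p of 1.2e-06, and by 1.35 in AHR KO. Its fold enrichment changed by −0.07 in WT and 0.11 in AHR KO, with neither called.

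*Eps8*, an actin-capping protein that acts downstream of EGF receptor, gave 2.93 and 4.02 in WT WENR against 0.364, 0.383 and 0.401 in WT d4 ENR. In AHR KO it gave 3.56, 4.40 and 4.94 against 0.508 and 0.734. WENR and d4 ENR did not overlap in either genotype, and the centred falls were 1.71 ± 0.19 in WT and 1.99 ± 0.19 in AHR KO. *Ptpn14* fell by 1.53, *Sptbn1*, which encodes a spectrin, by 1.5 and *Ism1*, a secreted protein, by 1.41 in WT, and all 3 fell in AHR KO too, by 0.69, 1.06 and 1.08, where fold enrichment of *Sptbn1* had the opposite sign, at 0.38. Fold enrichment of *Eps8*, *Ptpn14* and *Ism1* was also lower in WT and was called, at −0.48, −0.51 and −0.41, whereas that of *Sptbn1* was not called.

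At the other end stood promoters that kept their height while most lost it. *Slc30a10*, a manganese exporter of gut and liver, gave 0.558 and 0.569 in WT WENR and 0.523, 0.771 and 0.914 in WT d4 ENR, which overlap in FPM. In AHR KO it gave 0.428, 0.412 and 0.324 in WENR and 1.21 and 0.829 in d4 ENR, which do not. Centred, it was higher by 1.80 ± 0.22 in WT and 2.19 ± 0.22 in AHR KO. *Rdh16*, a retinol dehydrogenase, gave 0.646 and 0.579 in WT WENR, 0.461, 0.825 and 1.14 in WT d4 ENR, 0.611, 0.529 and 0.401 in AHR KO WENR and 0.760 and 1.10 in AHR KO d4 ENR. Its WT groups overlap in FPM, and its centred changes were 1.76 and 1.66. *Col16a1*, a collagen gene, was higher by 2.04 in WT and 1.39 in AHR KO, *Ifit1bl1*, of an interferon-induced family, by 1.99 and 1.75, and *Sh3tc1* by 1.91 and 1.27. Of these 5, fold enrichment was called in WT for *Col16a1* alone, at 0.60.

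In AHR KO, withdrawal changed 977 promoter regions, 375 higher and 602 lower. That is 12.4% of them, where 30.3% of all regions tested were called, 16.3% higher and 14.0% lower. The SD of the log2 change was 0.303 against 0.588 in the other regions. A call in every leave-one-out fit was kept by 333. Without AHR KO d4 ENR replicate 1 or 2 there were 540 and 555 calls, and without WT d4 ENR replicate 1, which enters through the shared spread, 1618. The largest rises were those of *Kif12*, a kinesin of kidney and liver epithelium, and *Slc30a10*. *Kif12* gave 0.394, 0.363 and 0.346 in AHR KO WENR and 0.883 and 1.08 in d4 ENR, and 0.466 and 0.567 against 0.538, 0.604 and 0.686 in WT. Its d4 ENR libraries lay above its WENR libraries in AHR KO and overlapped them in WT. Centred changes were 2.22 ± 0.16 in AHR KO and 1.69 ± 0.16 in WT, and fold enrichment was called in both, at 0.96 and 0.34.

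Behind *Kif12* came *Defb37*, a beta-defensin, at 2.16, *Abcc2*, an exporter of organic anions and conjugated bile salts, at 2.15, *Tgfbi*, a secreted matrix protein, at 2.13, and *Vav3*, a guanine nucleotide exchange factor, at 2.10. All 4 were also higher in WT, by 1.26, 1.67, 1.35 and 1.24, with fold enrichment of *Tgfbi* at −0.06 there. Among the largest falls in AHR KO, after *Eps8*, were those of *Atp12a*, a proton pump, at −1.51, *Nradd* at −1.42, *Spats2l* at −1.41 and *Pvr*, the poliovirus receptor of cell junctions, at −1.41. Fold enrichment fell for *Nradd*, *Spats2l* and *Pvr*, by 0.74, 0.31 and 0.50, and not for *Atp12a*, at 0.01.

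The changes with withdrawal in the 2 genotypes come from libraries that they do not share. In both, 665 promoter regions were called, 30.2% of the WT calls and 68.1% of the AHR KO calls. All but 1 of the 665 had the same direction, with 251 higher and 413 lower. Across the 7860 regions the log2 changes had a Pearson correlation of 0.74, a description over regions that share libraries and depth. A difference between the 2 genotypes in the response of height was not detected. The interaction called 0 regions in height with limma, and at an unadjusted p under 0.05 it held 720 promoter regions and 4023 regions in all. Without centring, 1381 promoter regions passed the same test, where 17.1% of all regions did. Without WT d4 ENR replicate 1 or 3, the centred interaction called 88 or 66.

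**Figure D2:**
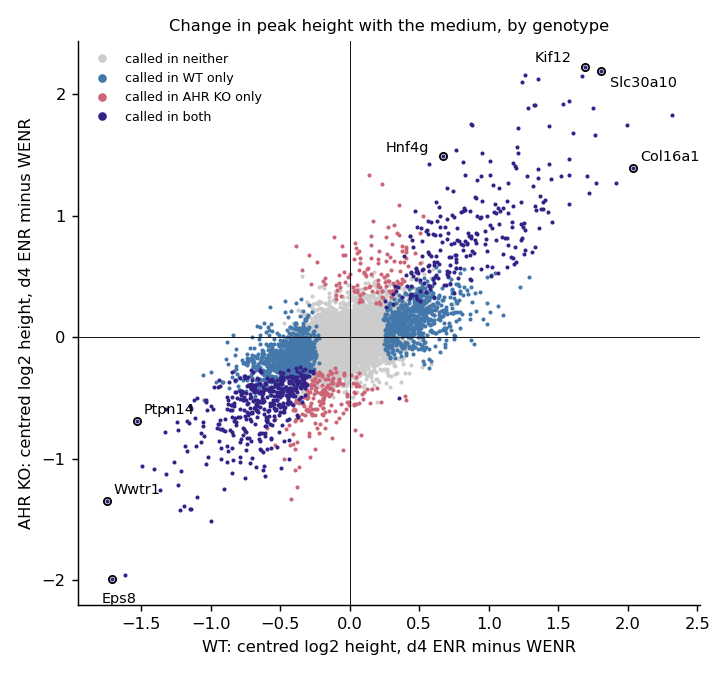
Centred log2 change in height from WENR to d4 ENR in WT (x axis) and AHR KO (y axis) for each of the 7860 promoter regions, coloured by the genotype in which it was called and ringed where named. The points run along the diagonal, with *Wwtr1*, *Ptpn14* and *Eps8* low and *Kif12*, *Slc30a10*, *Hnf4g* and *Col16a1* high in both genotypes.

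Height and fold enrichment did not always move together. Of the 2201 regions called in WT, 902 were also called in fold enrichment, 712 of them in the same direction. Of the 908 higher in height, 68.1% were higher in fold enrichment, and of the 1293 lower 60.4% were lower. In AHR KO 215 of the 977 were also called and 193 had the same direction. Fold enrichment by itself, centred, called 1624 promoter regions higher and 1347 lower in WT, where 38.6% of all regions were called, 18.5% higher and 20.1% lower. In AHR KO it called 305 higher and 571 lower, where 16.2% were called, 6.87% higher and 9.32% lower. Each direction of a height change below is therefore that of the centred pileup.

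Among YAP/TEAD targets and genes of the fetal-like state, 11 of 28 listed genes had a promoter region. For this list and those below, height counts with withdrawal stand beside the shares called over all promoter regions. These were 11.6% higher and 16.5% lower in WT, and 4.77% and 7.66% in AHR KO. Over all regions tested they were 20.1% and 20.2% in WT, and 16.3% and 14.0% in AHR KO. In WT 8 of the 11 were lower and 0 higher, in AHR KO 6 were lower and 0 higher, and their median centred changes were −0.47 and −0.43, whereas in fold enrichment the medians were 0.25 and 0.20, the opposite sign. The median over all regions tested was 0.0019 in WT and −0.0047 in AHR KO. *Amotl2*, an angiomotin that holds YAP in the cytoplasm, gave 8.54 and 9.47 in WT WENR, 9.40, 10.4 and 10.8 in AHR KO WENR, 1.29, 2.14 and 2.24 in WT d4 ENR, and 3.65 and 4.39 in AHR KO d4 ENR. It was high in all WENR libraries and lowest in WT d4 ENR. Centred, it fell by 0.84 in WT and 0.54 in AHR KO, while its fold enrichment changed by 0.22 in each. *Nrp2*, a semaphorin and VEGF coreceptor, fell by 0.85 and 0.78, and *Ly6a*, which encodes the regeneration marker Sca-1, by 0.79 and 0.51. In fold enrichment the sign was opposite in WT for *Nrp2* and in both genotypes for *Ly6a*.

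Of 20 Hippo pathway genes, 10 had 12 promoter regions. In WT 1 of these rose and 3 fell, and in AHR KO 0 rose and 2 fell. *Tead4*, the DNA-binding partner of YAP, fell by 0.45 in WT and 0.51 in AHR KO, and its fold enrichment had the opposite sign, at 0.63 and 0.26. *Taok3*, a kinase upstream of the Hippo kinases, rose by 0.40 in WT, where its change without centring was −1.06, and changed by 0.07 in AHR KO. *Amot* fell by 0.48 in WT.

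Genes that set intestinal identity moved both ways. Of 30 intestinal transcription factors 18 had a promoter region, and 2 rose and 9 fell in WT, against 2 and 3 in AHR KO, with medians of −0.22 and −0.11 in height but 0.23 and 0.11 in fold enrichment. *Hnf4g*, a nuclear receptor of enterocytes, gave 1.11 and 1.17 in WT WENR, 0.905, 0.844 and 0.661 in AHR KO WENR, 0.434, 0.660 and 1.02 in WT d4 ENR, and 1.40 and 1.16 in AHR KO d4 ENR. Only in AHR KO did the d4 ENR libraries lie above the WENR libraries in FPM. Centred, it was higher by 1.49 ± 0.21 in AHR KO and 0.67 ± 0.21 in WT, where fold enrichment changed by −0.02, and the interaction of 0.82 ± 0.30 had an adjusted p of 0.24. *Gata6*, a partner of HNF4 in gut cells, fell by 0.65 and 0.28 and *Foxa2*, a pioneer factor of endoderm, by 0.73 and 0.33, and fold enrichment had the opposite sign in both genotypes, at 0.22 and 0.07 for *Gata6* and 0.11 and 0.35 for *Foxa2*.

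Absorptive colonocyte genes had 13 promoter regions for 32 listed genes, 2 higher and 2 lower in WT and 3 higher and 1 lower in AHR KO. *Slc51b*, a subunit of the basolateral bile acid exporter, gave 1.27 and 1.10 in WT WENR, 0.649, 1.13 and 1.69 in WT d4 ENR, 1.64, 1.13 and 1.05 in AHR KO WENR and 1.46 and 1.95 in AHR KO d4 ENR. In FPM the media overlap in both genotypes. Centred, it was higher by 1.32 and 1.24, with a fold enrichment change of −0.01 and −0.16. *Aqp8*, the colonocyte water channel, was higher by 0.71 and 0.85 after centring, whereas in WT its fold enrichment changed by −0.12 and its height without centring by −0.75. *Plac8* and *Ceacam1* fell in WT by 0.46 and 0.42 with the opposite sign in fold enrichment.

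Of 24 Wnt target and stem cell genes only 6 had a promoter region. *Ephb3*, a crypt receptor that sorts epithelial cells, was higher in both genotypes, by 0.47 and 0.48, and its fold enrichment rose by 1.04 and 0.78. Its height in FPM was 6.41 and 7.29 in WT WENR and 2.46, 3.78 and 4.45 in WT d4 ENR, so that it fell, by less than the median region. *Rnf43*, a ligase that removes Wnt receptors, fell by 0.36 in WT, with fold enrichment at 0.06. Secretory lineage genes had 3 regions of 29 genes. *Atoh1*, which sets secretory fate, was higher by 0.71 in AHR KO after centring and changed by −0.10 without it, and *Xbp1*, of secretory cells and the unfolded protein response, was lower by 0.43 in WT.

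For promoters of the basic machinery the counts stand beside the 28.0% of promoter regions called in WT and the 12.4% called in AHR KO. Of 68 regions of cytosolic ribosomal protein genes 5 rose and 4 fell in WT and 0 were called in AHR KO. Mitochondrial ribosomal proteins had 9 higher and 6 lower of 62 in WT and 2 lower in AHR KO. Oxidative phosphorylation had 4 and 6 of 66, then 0 and 4. The proteasome had 2 and 6 of 29, then 0 and 2. Splicing had 3 and 0 of 42, then 1 and 0. RNA polymerase II with TFIID and Mediator had 7 and 4 of 57, then 0 and 2. DNA replication had 4 and 6 of 35, then 0 and 1, and mitosis 1 and 3 of 24, then 0 and 0. Each list's median change lay between −0.11 and 0.06 in both genotypes.

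Some of these promoters illustrate the range. The shared region of *Psma2*, a proteasome subunit, and *Mrpl32* was higher by 0.55 in WT, and that of *Emc8* and *Cox4i1* by 0.59, though both fell in FPM. *Psmd11*, a proteasome lid subunit, fell by 0.56 in WT and 0.35 in AHR KO, and *Med15*, of the Mediator tail, by 1.04 in each, from 2.87 to 3.96 in WENR to 0.467 to 1.12 in d4 ENR. *Rrm2*, a subunit of ribonucleotide reductase, and *Mcm5*, of the replicative helicase, fell by 0.57 and 0.50 in WT. The sign of fold enrichment was opposite for *Rrm2*, at 0.34, and the same for *Mcm5*, at −0.35. In fold enrichment 24 of the 68 ribosomal protein regions were called higher in WT and 0 lower. Over all promoter regions 20.7% were called higher and 17.1% lower, and over all regions tested 18.5% and 20.1%.

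AP-1 factors had 6 regions, of which 1 fell in each genotype, and *Jdp2*, a repressor of AP-1, fell by 0.76 and 0.49, with fold enrichment at 0.09 in AHR KO. ETS factors had 12, of which 5 fell in WT and 1 in AHR KO, with medians of −0.16 and −0.11 in height and 0.33 and 0.13 in fold enrichment, in which 7 were called higher and 1 lower in WT. *Etv4* fell by 0.82 and 0.45, with fold enrichment at 0.03 in AHR KO, and *Ehf*, of differentiated epithelium, fell by 0.62 in WT, with fold enrichment at 0.24. Glycolysis had 13 regions, with 2 rises and 2 falls in WT and 1 and 2 in AHR KO, and *Slc16a3*, the lactate exporter, rose by 0.71 in WT after centring and changed by −0.75 without it. Fatty acid oxidation and peroxisome genes had 26, with 3 rises and 4 falls in WT and 2 and 0 in AHR KO. The unfolded protein response had 21, with 1 rise and 4 falls in WT and 0 called in AHR KO. In fold enrichment 10 of the 21 were called higher and 0 lower in WT. Over all promoter regions 20.7% were called higher and 17.1% lower in fold enrichment in WT.

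**Figure D3:**
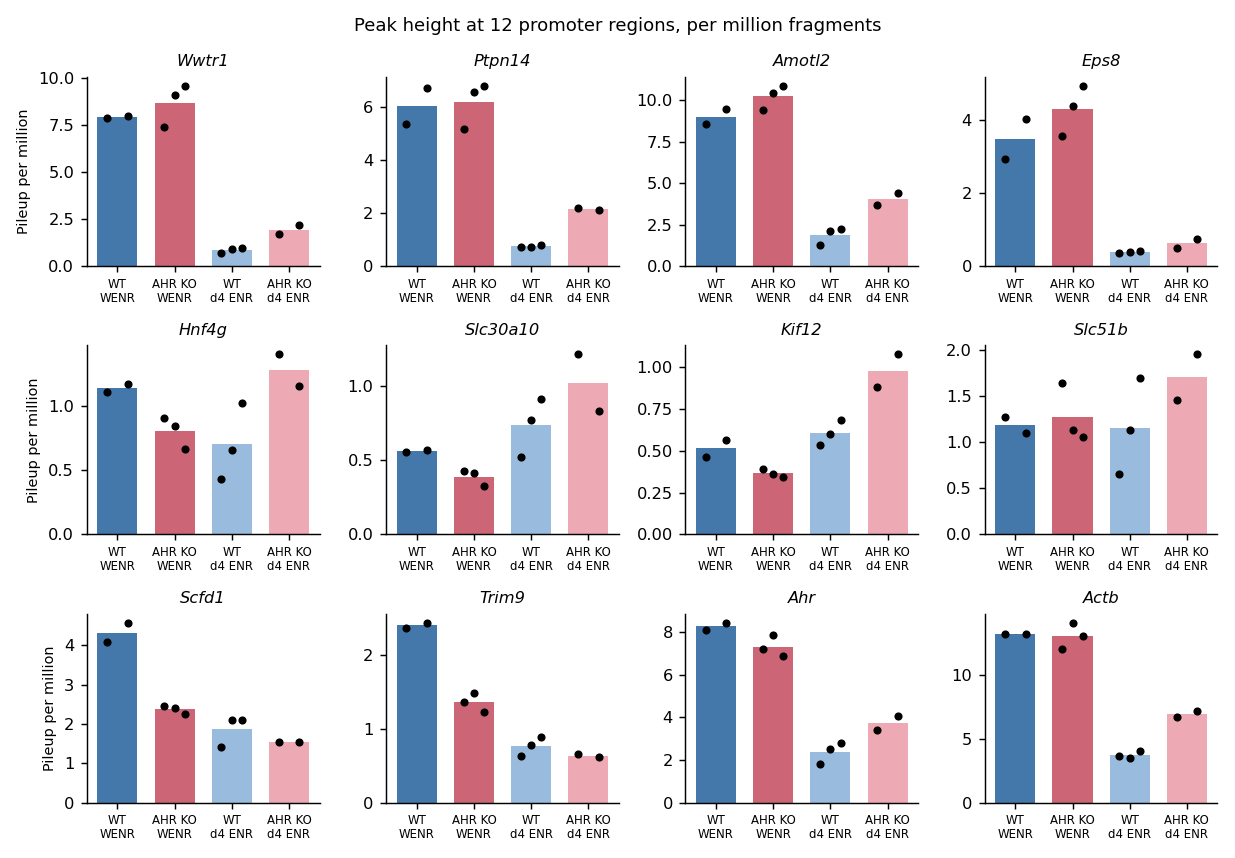
Pileup (FPM) at 12 promoter regions in each library (points) with the mean of each group (bars). *Wwtr1*, *Ptpn14*, *Amotl2* and *Eps8* are lower in every d4 ENR library than in every WENR library, whereas *Slc30a10* and *Kif12* rise to 0.829 to 1.21 and 0.883 to 1.08 in AHR KO d4 ENR.

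Without any centring, 32 promoter regions gained height in FPM with withdrawal in AHR KO. Of these, 28 also had higher fold enrichment. *Kif12* gained 1.41, *Slc30a10* 1.38, *Defb37* 1.35, *Abcc2* 1.34, *Tgfbi* 1.31, *Vav3* 1.28 and *Hnf4g* 0.68 (log2). Others were *Adh1*, an alcohol and retinol dehydrogenase, *Rdh16*, *Pipox*, *Cyp2d26* and *Pcx*, the pyruvate carboxylase. Their median CpG ratio was 0.191. In WT 3 regions gained height, those of *Gm10717* at 0.86, *Col16a1* at 0.58 and *Ifit1bl1* at 0.54. For *Col16a1* the media overlap in FPM, with 0.400 and 0.418 in WT WENR and 0.396, 0.685 and 0.846 in WT d4 ENR. Defensin, Cyp, Rdh and Ifit genes belong to families of similar genes, so that reads could be shared between copies.

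The genotype in d4 ENR changed the centred height of 111 promoter regions, 84 higher and 27 lower in AHR KO. Among all regions 2.17% were called, 1.32% higher and 0.851% lower, and among the promoter regions 1.41%. No region kept its call in every leave-one-out fit. Without AHR KO d4 ENR replicate 1 or WT d4 ENR replicate 2 there were 0 calls, without AHR KO d4 ENR replicate 2 there were 39, and without WT d4 ENR replicate 1 or 3 there were 549 or 649. Without either WT WENR library 7 were higher and 8 lower, and without AHR KO WENR replicate 2 there were 5 and 9, so that the excess of rises was lost. Fold enrichment called 156 higher and 155 lower, where 4.77% of all regions were called, 3.04% higher and 1.73% lower, and 35 of the 111 were among them, all in the same direction. Of the 84 higher in height 79 were higher in fold enrichment, and all 27 lower were lower.

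*Gcnt2*, which branches I blood group glycans, had the largest rise in AHR KO (chr13:40916369-40918176). It gave 0.520, 0.552 and 0.605 in WT d4 ENR and 1.75 and 1.98 in AHR KO d4 ENR, without overlap. In WENR it gave 3.32 and 4.42 in WT and 4.06, 5.2 and 5.68 in AHR KO, which overlap. The centred difference in d4 ENR was 1.04 ± 0.16, or 2.05-fold, with an adjusted p of 0.020. Its fold enrichment was higher by 0.34 there and not called. *Ptpn14*, a phosphatase that binds and restrains YAP (chr1:189727346-189728836), gave 0.737, 0.713 and 0.812 in WT d4 ENR and 2.2 and 2.13 in AHR KO d4 ENR. Its WENR values were 5.34 and 6.68 in WT and 5.18, 6.57 and 6.77 in AHR KO. The genotypes overlap in WENR and not in d4 ENR. Centred, it was higher by 0.82 ± 0.16 (adjusted p = 0.028), and fold enrichment was higher by 0.34 (adjusted p = 0.046).

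The promoter of *Ldlrad4*, an inhibitor of TGF-β signalling, was higher by 0.75 in AHR KO d4 ENR, with fold enrichment up by 0.40 and called. *Smim3* was higher by 0.76, also called in fold enrichment at 0.44, *Ptpa*, an activator of phosphatase PP2A, by 0.73 and *Clca4b*, of the chloride channel accessory family, by 0.73. Fold enrichment of *Ptpa* and *Clca4b* was higher, by 0.43 and 0.47, and not called. *Wwtr1* was higher by 0.47 ± 0.12 with an adjusted p of 0.048. It was called in 2 of the 10 leave-one-out fits, against 8 for *Gcnt2* and *Ldlrad4* and 7 for *Ptpn14*. *Pgk1*, of glycolysis, was higher by 0.60 and the shared region of *Psma7* and *Ss18l1* by 0.57. Fold enrichment of *Pgk1* had the opposite sign, at −0.12. Over the 11 YAP/TEAD regions the median difference was 0.25 in height and −0.07 in fold enrichment, and *Ptpn14* alone was called, against a median of −0.0036 over all regions.

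Promoters lower in AHR KO d4 ENR were fewer. *Gipc2*, a PDZ scaffold, gave 0.440, 0.855 and 0.932 in WT d4 ENR and 0.361 and 0.682 in AHR KO, which overlap in FPM, and the centred difference was −1.21 ± 0.22 (adjusted p = 0.022). *Csnk1g2*, a casein kinase, gave 5.21, 4.74 and 4.38 against 4.18 and 4.77, which overlap too, with a centred difference of −0.79 and a called fold enrichment difference of −0.58. In WENR it gave 5.53 to 6.24, so that it hardly lost height with withdrawal. *Spata21* was lower by 0.91, *Sfi1* at chr11:3175925-3178186 by 0.88 and *Kif11*, the mitotic kinesin, by 0.69. *Spata21* gave 0.411, 0.565 and 0.879 in WT d4 ENR and 0.406 and 0.642 in AHR KO, which overlap in FPM. Fold enrichment was called neither for *Spata21*, at −0.14, nor for *Sfi1*, at −0.12. *Sfi1* has near-identical copies in the mouse genome, so that its height is uncertain. *Kif11* gave 2.34, 2.23 and 2.33 against 2.12 and 2.53, and in FPM its difference was 0.01.

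In WENR the genotype changed 4 promoter regions, 2 in each direction, where 0.152% of all regions were called, 0.0355% higher and 0.117% lower. At an unadjusted p under 0.05 there were 199. Fold enrichment called 0, with 99 at an unadjusted p under 0.05. Without WT WENR replicate 1 or 2 or AHR KO WENR replicate 2 there were 0 calls, and without WT d4 ENR replicate 1 there were 11. Of the 4, 3 lay on chromosome 12, which carries *Ahr* and 256 of the 7860 promoter regions. *Scfd1*, a regulator of transport from the endoplasmic reticulum to the Golgi (chr12:51377113-51377967), gave 4.07 and 4.58 in WT WENR and 2.47, 2.39 and 2.26 in AHR KO WENR, without overlap. In d4 ENR it gave 1.42, 2.10 and 2.09 in WT and 1.54 and 1.53 in AHR KO, which overlap in FPM. Centred differences were −0.92 ± 0.13 in WENR (adjusted p = 0.0089) and −0.96 ± 0.13 in d4 ENR (adjusted p = 0.0081).

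*Trim9*, a ubiquitin ligase of neurons (chr12:70346269-70347939), gave 2.38 and 2.45 in WT WENR and 1.37, 1.5 and 1.22 in AHR KO WENR. It was lower in every AHR KO library of WENR, by 0.89 after centring, and by 0.96 in d4 ENR. *Prkar2b*, a regulatory subunit of protein kinase A (chr12:32060578-32061768), gave 1.17 and 1.35 in WT WENR and 2.12, 2.99 and 3.00 in AHR KO WENR. It was higher in every AHR KO library, by 1.03 in WENR and by 0.70, not called, in d4 ENR. Fold enrichment had the opposite sign in WENR for *Trim9*, at 0.23, and *Prkar2b*, at −0.24. In d4 ENR it had the same sign as height, at −0.25 for *Trim9*, not called, and 0.76 for *Prkar2b*, called. Their regions lie 15.8 Mb (*Scfd1*), 34.8 Mb (*Trim9*) and 3.47 Mb (*Prkar2b*) from that of *Ahr*. *Ifit3b*, of an interferon-induced family on chromosome 19, was the fourth, higher by 0.83. In d4 ENR 4 of the 111 calls lay on chromosome 12. Whether DNA linked to the targeted gene has a part in the chromosome 12 values was not tested.

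**Figure D4:**
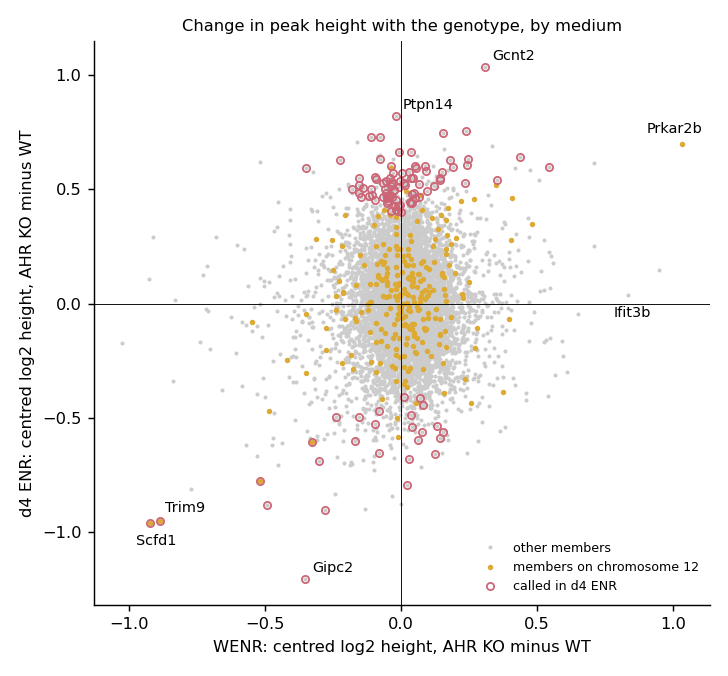
Centred log2 difference in height between AHR KO and WT in WENR (x axis) and d4 ENR (y axis) at each of the 7860 promoter regions, with members on chromosome 12 in gold and those called in d4 ENR ringed. *Scfd1* and *Trim9* are low in both media, while *Gcnt2* and *Ptpn14* stand at 1.04 and 0.82 in d4 ENR.

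The promoter region of *Ahr* itself (chr12:35534094-35535580) had a peak in every AHR KO library. It gave 8.10 and 8.44 in WT WENR, 7.20, 7.85 and 6.87 in AHR KO WENR, 1.79, 2.51 and 2.80 in WT d4 ENR and 3.4 and 4.04 in AHR KO d4 ENR. AHR KO lay below WT in WENR and above it in d4 ENR, as the median region did in d4 ENR, and the centred differences of −0.24 and −0.03 were not called. A peak at the promoter is no check of the deletion. *Arnt*, the partner of AHR, differed by 0.02 and 0.00. Of 24 genes of the AHR pathway 13 had 14 promoter regions, and 0 were called between genotypes in either medium. Over all promoter regions 0.0509% were called in height in WENR and 1.41% in d4 ENR. With withdrawal in WT *Ahr* fell by 0.37, with fold enrichment of *Ahr* at 0.11. In AHR KO 1 region was called, that of *Gsta1*, a glutathione transferase, which fell by 0.48.

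Widths changed less often than heights. The genotype in WENR called 0 promoter regions in width, with 71 at an unadjusted p under 0.05, where 0.00355% of all regions were called. In d4 ENR it called 99 wider and 11 narrower in AHR KO, where 2.62% of all regions were called, 2.44% wider and 0.181% narrower. Withdrawal in WT called 807 wider and 422 narrower, where 16.7% of all were called, 7.04% wider and 9.68% narrower. Withdrawal in AHR KO called 15 wider and 78 narrower, where 2.40% were called, 0.581% wider and 1.82% narrower. These are centred widths. Without centring the splits were 980 wider and 1 narrower for the genotype in d4 ENR, where 13.4% of all were called, 13.3% wider and 0.0425% narrower. They were 3 and 3579 for withdrawal in WT, where 44.4% were called, 0.167% wider and 44.2% narrower, and 4 and 106 in AHR KO, where 2.52% were called, 0.287% wider and 2.23% narrower. After quantile normalisation they were 91 and 27 for the genotype in d4 ENR, 1687 and 357 for withdrawal in WT and 29 and 79 in AHR KO.

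The direction of the width calls rested on single libraries. Without WT d4 ENR replicate 3 the genotype in d4 ENR called 399 wider and 1174 narrower, and withdrawal in WT 1964 wider and 685 narrower. Without WT WENR replicate 1 or 2, withdrawal in WT called 4 wider and 51 narrower or 2 and 53, without AHR KO WENR replicate 2 it called 239 and 264, and with 50% of the region covered 105 and 168. The interaction in width called 11 promoter regions, all wider with withdrawal in AHR KO relative to WT, where 0.323% of all regions were called, 0.305% wider and 0.0177% narrower. Without centring it called 121 wider and 0 narrower, where 2.08% were called, 2.07% wider and 0.0106% narrower. Without either WT WENR library, or without AHR KO WENR replicate 1 or 2, it called 0 of them, with 312 to 446 at an unadjusted p under 0.05, and without WT d4 ENR replicate 3 it called 133 wider and 190 narrower. *Comp*, *Mpg* and *Slc51b* were among the 11. *Slc51b* was covered over 1971 and 1979 bp in WT WENR, 892, 1002 and 1156 bp in WT d4 ENR, 1860, 1972 and 2027 bp in AHR KO WENR and 2082 and 2067 bp in AHR KO d4 ENR, and its interaction was 0.71 ± 0.09 (adjusted p = 0.031).

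*Comp*, a matrix protein gene, was covered over 2673 and 2615 bp in WT WENR, 2659, 2408 and 3072 bp in AHR KO WENR, 471, 458 and 761 bp in WT d4 ENR and 2659 and 2284 bp in AHR KO d4 ENR. WT d4 ENR alone was narrow. The centred differences were −1.83 with withdrawal in WT and 1.84 ± 0.16 (adjusted p = 0.0018) between genotypes in d4 ENR, and the interaction was 1.80 ± 0.22 (adjusted p = 0.027). *Hoxd1*, a homeobox gene, was covered over 933 and 969 bp, 836 to 974 bp, 289, 469 and 283 bp, and 1701 and 1572 bp in the same order of groups, a difference of 1.95 ± 0.24 in d4 ENR. *Plekhs1* was wider by 1.80. Narrower in AHR KO d4 ENR were *Pygl*, the liver glycogen phosphorylase on chromosome 12, by 1.37, *Ccndbp1* by 0.68 and *Get4* by 0.38. Uncentred widths of *Ccndbp1* and of *Get4* overlap between the genotypes.

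With withdrawal, *Ddx54*, an RNA helicase, went from 3596 and 3561 bp in WT WENR to 643, 447 and 198 bp in WT d4 ENR, a centred change of −2.78 ± 0.49. *Abcc8* changed by −2.62 and *Lhx6* by −2.52 in WT. *Rdh16* was wider by 1.25 in WT, *Sp110* with *Sp140* by 1.17 and *Ccndbp1* by 0.96. In AHR KO *Tgfb2*, which encodes a TGF-β ligand, went from 1972, 1697 and 1744 bp to 414 and 545 bp, and *Sbno2* from 1967 to 2048 bp to 452 and 684 bp, changes of −1.82 and −1.76. Both narrowed in WT too, by 2.08 and 1.72. *Pfkm*, the muscle phosphofructokinase, narrowed by 1.83. *Mpg*, a DNA glycosylase, was covered over 686 to 827 bp in AHR KO WENR and 1946 and 1991 bp in AHR KO d4 ENR, and over 550 to 662 bp in WT d4 ENR. It was wider by 1.53 ± 0.10 in AHR KO, with an interaction of 1.38 ± 0.15 (adjusted p = 0.016), while *Igf2bp2* was wider by 1.90 and *Tmem238l* by 1.76.

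Some regions were called in both height and width. With withdrawal in WT 417 promoter regions were called in both, 98 in the same direction and 319 in opposite directions. Between genotypes in d4 ENR 8 were called in both, 7 of them opposite, and with withdrawal in AHR KO 21 were, 12 in the same direction and 9 opposite. The promoter regions were placed in 5 groups of equal size by height. The centred width change with withdrawal in WT had a median of −0.24 in the lowest group and 0.23 in the highest, and in AHR KO it ran from −0.07 to 0.08. Relative to the median region, low peaks became narrower and high peaks wider.

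CpG-poor promoters carried more of the height changes with withdrawal. In 5 groups of equal size by the CpG ratio, from the poorest to the richest, 38.5, 28.2, 25.9, 24.4 and 23.0% of the promoter regions were called in WT and 28.1, 12.3, 8.71, 7.63 and 5.47% in AHR KO. These groups differ in height too, with medians of 2.22, 3.11, 3.64, 3.97 and 3.89 FPM, and over the 5 groups by height the share called in AHR KO ran from 26.1% in the lowest to 4.01% in the highest. In WT it ran from 29.9 to 26.0%. Regions higher in both genotypes had a median CpG ratio of 0.307, and those lower in both 0.668.

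**Figure D5:**
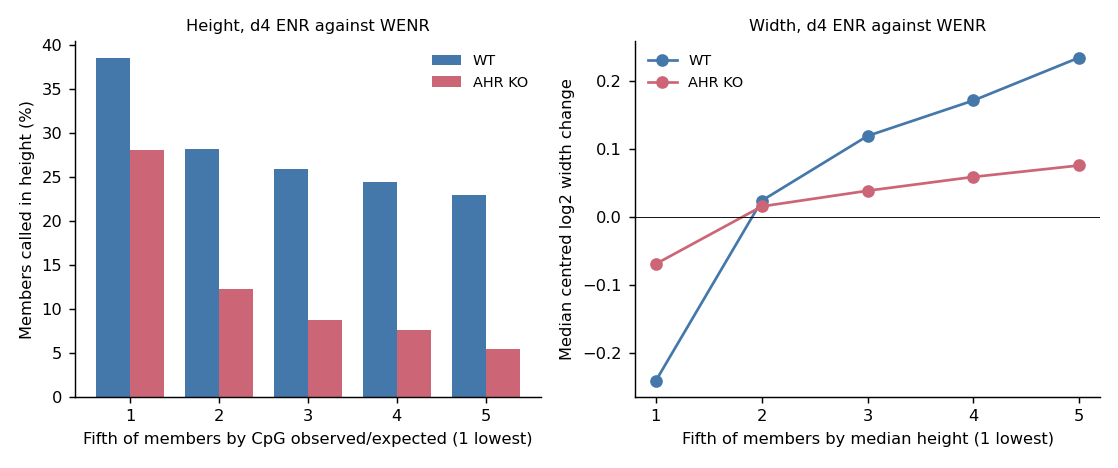
Left, share of promoter regions called in height with withdrawal (%) in each of 5 groups by the ratio of observed to expected CpG, in WT and AHR KO; right, median centred log2 change in width in each of 5 groups by median height. The share called in AHR KO falls from 28.1 to 5.47% as CpG rises, and the width change in WT rises from −0.24 to 0.23 with height.

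Some words differed in share between the regions called in each direction, given here as descriptions. The HNF4 word stood in 10 of the 375 regions higher in AHR KO with withdrawal, 2.67%, against 0.369% of all promoter regions and 0.419% of all gene starts. Besides the 3 printed, these were *Sec16b*, *Adtrp*, *Sptlc1*, *Rab11fip3*, *C2cd3*, *Slco2a1* and the region of *Slc10a5*. The CDX word stood in 10.7% against 6.01%, with 10.2% of all starts. The TATA box stood in 9.87% against 3.33%. In the regions higher in WT with withdrawal, the HNF4, CDX and TATA words stood in 0.661, 8.26 and 5.62%. In those lower in AHR KO they stood in 0.498, 6.64 and 5.32%. The NRF1 word stood in 3.52% of the regions higher in WT, 0.387% of those lower and 1.91% of all promoter regions. In AHR KO it stood in 1.60% of the regions higher and 0.831% of those lower. The TEAD word stood in 18 of the 84 regions higher in AHR KO d4 ENR, 21.4%, *Ptpn14* among them, against 10.9% of all promoter regions and 13.5% of all starts. It stood in 11.1% of the 27 regions lower there. With withdrawal in AHR KO it stood in 15.2% of the regions higher and 14.3% of those lower. In WT these shares were 9.36% and 14.2%. These sets also differ in CpG content, and no test was made.

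Nearby regions moved with the promoters to some extent. Another region called in all libraries lay within 10 kb of 2112 promoter regions. Across these the change with withdrawal had a correlation of 0.267 with that of the neighbour in WT and 0.285 in AHR KO, and the genotype difference in d4 ENR one of 0.134, all over neighbours in the same libraries. Of the lower promoter regions with a neighbour in AHR KO 71.4% had it lower too, and of the higher ones 79.7% had it higher. In WT the shares were 64.7 and 69.4%. Of the 35 with a neighbour that were higher in AHR KO d4 ENR, 27 had it higher, and of the 8 that were lower 4 had it lower.

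The highest promoter region, another one of *Sfi1* with a median of 17.6 FPM, was lower by 0.50 in AHR KO d4 ENR. The next was that of the gene model *Gm10717*, with a median of 17.2 FPM, named after its values were seen. It was higher by 2.32 in WT and 1.82 in AHR KO with withdrawal, with fold enrichment at −0.02 and −0.15. *Dstn*, an actin-severing protein, gave 17.3 and 18.2 in WT WENR, 15.2 to 19.8 in AHR KO WENR, 5.53, 6.06 and 7.30 in WT d4 ENR and 9.01 and 11.3 in AHR KO d4 ENR, and it was not called in height in any comparison. *Cic*, a repressor downstream of Ras signalling, and *Sp1*, which binds the SP/KLF word, with median heights of 12.9 each, were not called in height either. *Actb*, with a median of 9.56, fell by 0.37 in WT (adjusted p = 0.021), with fold enrichment at 0.39. *Gapdh* changed by −0.27 and −0.22 and was not called. The widest, *Pcdh1*, a protocadherin, *Mecom*, a zinc finger factor, and *Adm*, a vasodilator peptide, were covered over a median of 5115, 4673.5 and 4655.5 bp. *Mecom* narrowed in WT from 4714 and 4736 to 966, 1692 and 1996 bp and stayed at 4836 and 3701 bp in AHR KO d4 ENR. The narrowest, *Zp2*, *Kctd19*, *Cop1* and *Pibf1*, were covered over 319.5 to 351.5 bp. Of these *Pibf1* fell in height in both genotypes, by 0.65 and 0.86, with fold enrichment at 0.27 and 0.15, and *Zp2* rose in AHR KO by 0.92.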

How the data were processed

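The authors aligned paired-end Omni-ATAC-seq reads of 10 libraries with BWA within nf-core/atacseq (GRCm38) and ran MACS 2.2.7.1 on each library alone for broad peaks, with no control and no pooled replicates. The deposited peak lists give the pileup as fragment coverage (signal), the fold enrichment as a ratio over a local background of up to 10000 bp, and −log10 p-values and q-values, with file headers naming q thresholds of 0.1 for broad and 0.05 for narrow regions. Fragment totals are those in the headers, per the file headers.

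Peaks were merged as described. The log2 pileup and log2 bases covered over the 28205 regions were centred by the median of ratios and fitted with limma 3.58.1 (R 4.3.3) with a mean-variance trend and 4 group means, with Benjamini-Hochberg adjustment over all regions and a threshold of 0.05. Counts per region were not used, since peak lists hold none. Tables and figures used Python 3.11.15, numpy 2.4.6, pandas 2.3.3, pysam 0.24.0 and matplotlib 3.10.9. Tested on simulated data of 28205 regions with 200 changed, the fit recovered 0% of log2 changes of 0.5 in either of 2 contrasts. For a log2 change of 1 it recovered 80.5% for the genotype in d4 ENR and 77.0% for withdrawal in WT. In the data, withdrawal in WT called 40.3% of all regions, far more than were changed in the simulation. The recovered shares need not hold for that contrast.

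The members and gene lists were chosen with earlier results of these data known. Named genes were the 6 largest rises and 6 largest falls in height of each contrast, and 3 and 3 in width, that were called and did not overlap between groups, among regions with starts of at most 2 genes and no Gm or Rik gene model, the 4 highest, widest and narrowest regions, Ahr, Arnt, Epcam, Actb and Gapdh, and 2 to 4 members of each list with the smallest p. Genes that several contrasts share are described once. Epcam had no promoter region by the rule, and some items that the rule named are not reported here. Replicate numbers did not pair the samples.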

Additional observations from a re-analysis of the deposited data

Results flagged for a closer look

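The genotype effect on width differed between the media, by the interaction term in limma, at 11 promoter regions, of which 3 are named here. On the log2 scale the effect in d4 ENR was larger than that in WENR by 1.80 for Comp (adjusted p = 0.027), 1.38 for Mpg (adjusted p = 0.016) and 0.71 for Slc51b (adjusted p = 0.031). Leaving out 1 library gave 0 to 323 calls. Groups of 2 or 3 libraries are too small for the test of single outlying libraries.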

How the results depend on the processing

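The 7860 regions become 4231 with 1 start per gene and 12940 with midpoints up to 3 kb from a start. Calls in height for the genotype in WENR (4) were 0 without centring, 0 with fold enrichment centred or as deposited, and 1 with quantile normalisation, peaks of −log10 q of 5 or more, 50% of the region covered, the replicate block or summed coverage, and 2 with 1 start per gene. In limma 62, 99 and 8 had an unadjusted p under 0.05 in the 3 fits with 0. For the genotype in d4 ENR (111) they were 6740 without centring, 311 with fold enrichment centred and 0 as deposited (429 at an unadjusted p under 0.05 in limma), 60 with the stricter q, 31 with 50% covered, 55 with 1 start per gene, 56 with summed coverage and 181 with the replicate block. For withdrawal in WT (2201) they were 7747 without centring, 1110 with 1 start per gene and 603 with fold enrichment as deposited. In AHR KO (977) they were 7281, 442 and 61 in that order, 426 with the stricter q, 436 with 50% covered and 640 with summed coverage. The interaction called 1381 without centring. In width, the genotype called 6 in WENR with the stricter q, and in d4 ENR 981 without centring, 46 with 50% covered, 58 with 1 start per gene and 43 with the replicate block. Withdrawal changed the width of 3582 without centring, 2044 with quantile normalisation, 273 with 50% covered and 638 with 1 start per gene in WT, and of 32 with 50% covered, 44 with 1 start per gene and 54 with the replicate block in AHR KO. The interaction in width (11) called 121 without centring, 19 with quantile normalisation, 45 with the stricter q, 4 with 50% covered, 5 with 1 start per gene and, in limma, 0 with the replicate block, with 991 at an unadjusted p under 0.05. This interaction, fold enrichment as deposited and summed coverage were added after the data were seen. The causes were not tested, except that fewer regions are counted with 1 start per gene or with 50% covered.

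Leaving out 1 library at a time gave, in height, 0 to 11 calls for the genotype in WENR, 0 to 649 in d4 ENR, 910 to 2734 for withdrawal in WT, 540 to 1618 in AHR KO and 0 to 88 for the interaction. In width it gave 0 to 4, 26 to 1573, 55 to 2649, 48 to 199 and, for the interaction, 0 to 323. A lone WT WENR or AHR KO d4 ENR library is then assumed to vary like the other groups. The genotype in d4 ENR called, in height, 0 and 39 without AHR KO d4 ENR replicates 1 and 2, 549, 0 and 649 without WT d4 ENR replicates 1, 2 and 3, 27, 14 and 38 without AHR KO WENR replicates 1, 2 and 3, and 15 without either WT WENR library. Withdrawal in WT called 988 and 910 in height, and 55 and 55 in width, without WT WENR replicates 1 and 2, and 2649 in width without WT d4 ENR replicate 3. Withdrawal in AHR KO called 540 and 555 in height without AHR KO d4 ENR replicates 1 and 2, 576 without AHR KO WENR replicate 3 and 1618 without WT d4 ENR replicate 1. The replicate numbers did not pair the samples, with correlations of deviations from −0.047 to 0.22 in height and −0.02 to 0.093 in width, so the replicate block gives only a count.

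With fold enrichment in place of pileup, centred, the sign of 37 single-region results turned. For withdrawal in WT the values were Actb 0.39, Ahr 0.11, Amotl2 0.22, Aqp8 −0.12, Ceacam1 0.52, Ehf 0.24, Foxa2 0.11, Gata6 0.22, Herpud1 0.0896, Hnf4g −0.0244, Kif23 0.0353, Krt19 0.27, Krt8 0.37, Ly6a 0.40, Nrp2 0.25, Plac8 0.24, Rdh10 with Rpl7 0.14, Rnf43 0.0607, Rpl35 with Arpc5l 0.0128, Rrm2 0.34, Slc51b −0.0113 and Tead4 0.63. In AHR KO they were Amotl2 0.22, Atp12a 0.0058, Etv4 0.0263, Foxa2 0.35, Gata6 0.0714, Jdp2 0.0928, Krt19 0.0767, Ly6a 0.23, Plac8 0.10, Slc51b −0.16, Tead4 0.26 and Wwtr1 0.11. For the genotype they were Pgk1 −0.12 in d4 ENR, and Prkar2b −0.24 and Trim9 0.23 in WENR. Without centring the sign of 14 turned. They were in WT Aqp8 −0.75, Emc8 with Cox4i1 −0.87, Ephb3 −0.98, Hnf4g −0.78, Lsm14b −0.95, Psma2 with Mrpl32 −0.91, Slc16a3 −0.75, Slc51b −0.14, Taf1d with 4931406C07Rik −0.93 and Taok3 −1.06, in AHR KO Atoh1 −0.10, Ephb3 −0.33 and Lsm12 −0.34, and for the genotype in d4 ENR Kif11 0.0124. With fold enrichment 36 more were no longer called, and without centring 16, with the sign kept. Peak lists hold no reads outside peaks, and 2 or 3 libraries per group limit each test.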
